A study of Mus musculus with 6 samples.

Results

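Replication-dependent histone genes encode the linker histone H1 and the 4 core histones H2A, H2B, H3 and H4 that package newly made DNA. The members were the rows of the count tables whose mouse Ensembl identifier belongs to a protein-coding gene with a symbol starting Hist1h, Hist2h, Hist3h or Hist4h. The annotation lists 67 such genes and 65 had a count row, out of 49585 genes with a row. The 65 comprised 6 H1, 18 H2A, 16 H2B, 12 H3 and 13 H4 genes, and Hist1h2bh and Hist1h2bm were not analysed here. On the GRCm38 genome, 52 of the counted members lie in the Hist1 cluster on chromosome 13 between 21715763 and 23934851, and 10 in the Hist2 cluster on chromosome 3 between 96219865 and 96270132. The Hist3 group holds 2 counted members on chromosome 11 between 58948920 and 58956830, and Hist4h4 stands alone on chromosome 6.

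RNA was sequenced in bulk from haematopoietic stem cells (HSCs), which sit in the bone marrow and renew the blood, of untreated C57BL/6 mice aged 8 to 16 weeks. All libraries came from one sort, of Lin- cells that carried Kit, Sca-1, CD150 and CD201 and lacked CD48 and CD34. The sorted cells were split by surface CD38, an enzyme that consumes NAD, into 3 CD38-positive (CD38hi) and 3 CD38-negative (CD38lo) libraries, each from the cells of 10 mice. The series' design text sets 1 CD38-positive against 1 CD38-negative library in 3 pairs, and leaves unsaid whether the mice were shared within a pair. The series title names dormancy, the long resting state of stem cells, so the comparison bears on genes tied to DNA replication.

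As background, these genes are switched on together when a cell copies its DNA, and their transcription depends on NPAT. Most metazoan replication-dependent histone mRNAs end in a conserved stem-loop bound by SLBP in place of a poly(A) tail. Some members can in addition give a polyadenylated mRNA that reaches beyond the stem-loop. The replacement histones H3.3 and H2A.Z come from genes outside the clusters, with ordinary polyadenylated mRNAs, and are made throughout the cell cycle.

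The stem-loop sites of 9 members described below are shown because their common form is what the search counted. The 2 H4 sites carry the GGCCC form of the stem and the other 7 the GGCTC form, while the last base of the loop varies within both. Each line gives the site in the annotated transcript, 5′ to 3′, with the 16 bases of the stem-loop in capitals and up to 5 bases on each side, from the GENCODE M21 transcripts.
Hist1h1c: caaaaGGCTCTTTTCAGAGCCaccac
Hist1h1e: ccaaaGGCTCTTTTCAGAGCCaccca
Hist1h2ab: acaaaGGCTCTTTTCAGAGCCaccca
Hist1h2ae: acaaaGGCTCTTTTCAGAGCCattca
Hist2h2ac: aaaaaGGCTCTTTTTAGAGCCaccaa
Hist3h2a: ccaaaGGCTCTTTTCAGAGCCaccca
Hist1h3c: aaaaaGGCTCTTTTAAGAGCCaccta
Hist1h4d: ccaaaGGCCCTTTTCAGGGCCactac
Hist1h4i: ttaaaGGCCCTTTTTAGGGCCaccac

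The forms searched were the 2 commonest in the members themselves, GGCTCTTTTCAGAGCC and then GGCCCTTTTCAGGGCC, each with complementary arms of 6 bases around a loop of 4. They were sought on the transcript strand, with at most 1 mismatch, in the 150 bases after the stop codon. Of the 50 counted members with at least 30 bases of annotated 3′ untranslated region (UTR), 41 (82.0%) held one of these forms, 31 of them exactly. All 10 H4 genes with a site had the GGCCC form, and the 31 sites in H1, H2A, H2B and H3 genes had the GGCTC form. Outside the members, 2 of 18968 genes with a full window held a form, H2bfm and the H2A replacement gene H2afx. No site was found in the windows of Hist1h2bc, whose annotated 3′ UTR of 742 bases is spliced, or of Hist2h2be, whose 3′ UTR has 2192 bases. The other 15 counted members have under 30 bases of annotated 3′ UTR, Hist1h1b among them.

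The promoters were read from RefSeq (GRCm38.p6), 250 bases before to 50 after each start, for 62 of the 67 annotated members. Both strands were searched for 3 motifs, each counted without regard to the others. The first was CCAAT, the box bound by NF-Y. It was present in 6 of 6 H1, 18 of 18 H2A, 16 of 16 H2B and 10 of 10 H3 promoters, but in 3 of 12 H4 promoters. Among all 32817 promoters, 37.4% held it, against 85.5% of the members' promoters. TATAAA, the sequence of the TATA box, was in 56.5% of the members' promoters and in 13.6% of all promoters. It was counted at any position in the window, so a match need not be the gene's own TATA box. The octamer bound by Oct-1, searched as ATTTGCAT, was in 7 of 18 H2A and 7 of 16 H2B promoters and in none of the H1, H3 or H4 promoters, which made 22.6% of members against 1.74% of all promoters. Windows of H2A and H2B neighbours that start close together overlap, so that 1 motif can be counted in both. Hist1h2be has 2 RefSeq windows, 1 of which holds the octamer, and it was counted as holding it.

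The following promoters belong to 3 members described below, an H2A gene that shares its upstream region with an H2B gene, the most abundant H2A gene, and an H4 gene. Capitals mark the 3 motifs on either strand, and the letters run 5′ to 3′ in the direction of the gene.
Hist2h2ac, chr3:96220831-96221130, minus strand: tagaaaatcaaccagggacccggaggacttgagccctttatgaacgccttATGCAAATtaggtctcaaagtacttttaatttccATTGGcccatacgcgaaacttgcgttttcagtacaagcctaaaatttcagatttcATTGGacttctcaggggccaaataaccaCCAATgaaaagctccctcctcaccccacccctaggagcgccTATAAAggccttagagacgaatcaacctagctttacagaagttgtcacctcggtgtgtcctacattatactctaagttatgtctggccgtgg
Hist1h2ae, chr13:23571171-23571470, minus strand: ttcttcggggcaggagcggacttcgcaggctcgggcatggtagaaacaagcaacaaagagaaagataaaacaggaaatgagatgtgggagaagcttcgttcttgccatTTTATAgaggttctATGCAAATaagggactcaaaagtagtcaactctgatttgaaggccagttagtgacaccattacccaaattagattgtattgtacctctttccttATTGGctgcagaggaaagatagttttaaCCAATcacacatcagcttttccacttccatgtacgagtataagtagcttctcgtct
Hist1h4d, chr13:23581318-23581617, plus strand: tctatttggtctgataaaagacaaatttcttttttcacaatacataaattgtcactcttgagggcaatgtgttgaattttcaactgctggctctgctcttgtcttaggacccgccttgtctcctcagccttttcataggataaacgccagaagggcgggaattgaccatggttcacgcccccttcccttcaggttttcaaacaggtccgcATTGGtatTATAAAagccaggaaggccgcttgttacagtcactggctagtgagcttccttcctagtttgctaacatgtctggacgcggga
The Hist2h2ac window holds 3 CCAAT boxes, 1 TATA box and 1 octamer.

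The libraries held 16771180 to 18558610 counts, so that 3 counts, the limit a count of 0 allows, correspond to 0.165 to 0.183 CPM. CPM, counts scaled to the library total, are TMM-scaled here, that is, adjusted by edgeR for differences in RNA composition. All 10 HSC marker genes checked were detected in every library. Their summed level ran from 744 to 1583 CPM in CD38-positive and from 991 to 2200 CPM in CD38-negative libraries, and 8 of the 10 had a negative log2 fold change, 4 of them with an unadjusted p under 0.05 and none past the adjusted threshold used below. Marker genes of other cells were present in every library too. The 9 neutrophil genes summed to 61125 to 146884 CPM and 72433 to 118121 CPM in the respective groups, the 6 promyelocyte genes to 9080 to 16957 and 9244 to 12884, and the 9 erythroid genes to 2526 to 8996 and 3715 to 7414. The 10 B and plasma cell genes summed to 177 to 287 CPM in CD38-positive and 394 to 1088 CPM in CD38-negative libraries, without overlap. Gene by gene this list was split, with 4 positive and 6 negative log2 fold changes and a median of −0.018. In each direction 1 of its genes had an unadjusted p under 0.05, and 0 passed the adjusted threshold used below. None of these lists had a gene at 0 in every library, and their part in the histone values was not tested.

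Histone reads came from few of the members. The 65 members took 19291 reads in the 6 libraries together, which was 0.0152% to 0.0234% of each library's counts. At least 1 read fell on 59 members, 41 members had a mean under 10 reads per library, and the 9 members with a mean of 100 or more held 82.4% of the reads. Hist1h1t, the testis form of H1, had 0 reads although all of its 50-base windows are unique in the annotated transcripts. The testis-specific Hist1h2aa and Hist1h2ba had 5 and 3 reads in all. The other 5 members at 0 were Hist1h2bq, Hist1h2br, Hist1h4m, Hist2h2aa1 and Hist2h3c1, of which the share of unique 50-base windows was 2.68%, 11.3%, 10.2%, 0% and 0%.

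The members can be grouped by how much of their transcript is unique. Among the 19 members with under 20% of their 50-base windows unique, the median was 10 reads over the 6 libraries, 5 were at 0, and together they held 2.48% of the members' reads. In the 34 members with 20% to 80% unique windows the median was 39.5 reads and none was at 0. The 12 members with at least 80% unique windows had a median of 159 reads, and 11 of them passed the filter on low counts. How reads that match several genes were counted is not given in the sources used here, so a low count of a copied gene is uncertain, and the part of copies in these counts was not tested. Hist1h1e and Hist1h2be further share 496 exonic bases on the same strand, and Hist3h2a shares 708 exonic bases with Trim17.

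Levels between genes are compared per length, as RPKM, which is CPM divided by the exon length in kilobases. Hist1h2bc, an H2B gene, had the highest mean level, 36.0 RPKM, and took 22.3% of all histone reads. The linker histone gene Hist1h1b followed with 27.1 RPKM, then the H2A gene Hist1h2ae with 17.4 and the H4 gene Hist1h4i with 12.8. Next came Hist1h2ab (11.8 RPKM), Hist1h1c (11.6), Hist1h1e (10.3), Hist1h4d (9.10), Hist2h2ac (8.20) and Hist3h2a (7.29). Neighbours in this order overlapped in their ranges over the 6 libraries, for example 16.1 to 51.9 RPKM for Hist1h2bc and 12.4 to 51.9 RPKM for Hist1h1b. No H3 gene came near these levels, and the highest, Hist1h3c, had a mean of 1.31 RPKM. No H3 gene had 80% or more of its 50-base windows unique, the highest share being 75.2% in Hist1h3d. The part of shared sequence in these low levels was not tested. Levels per length also depend on the annotated exon length and on how the library captured RNA without a poly(A) tail. The selection step is not given in the sources used here, and its part in this order was not tested.

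**Figure D1:**
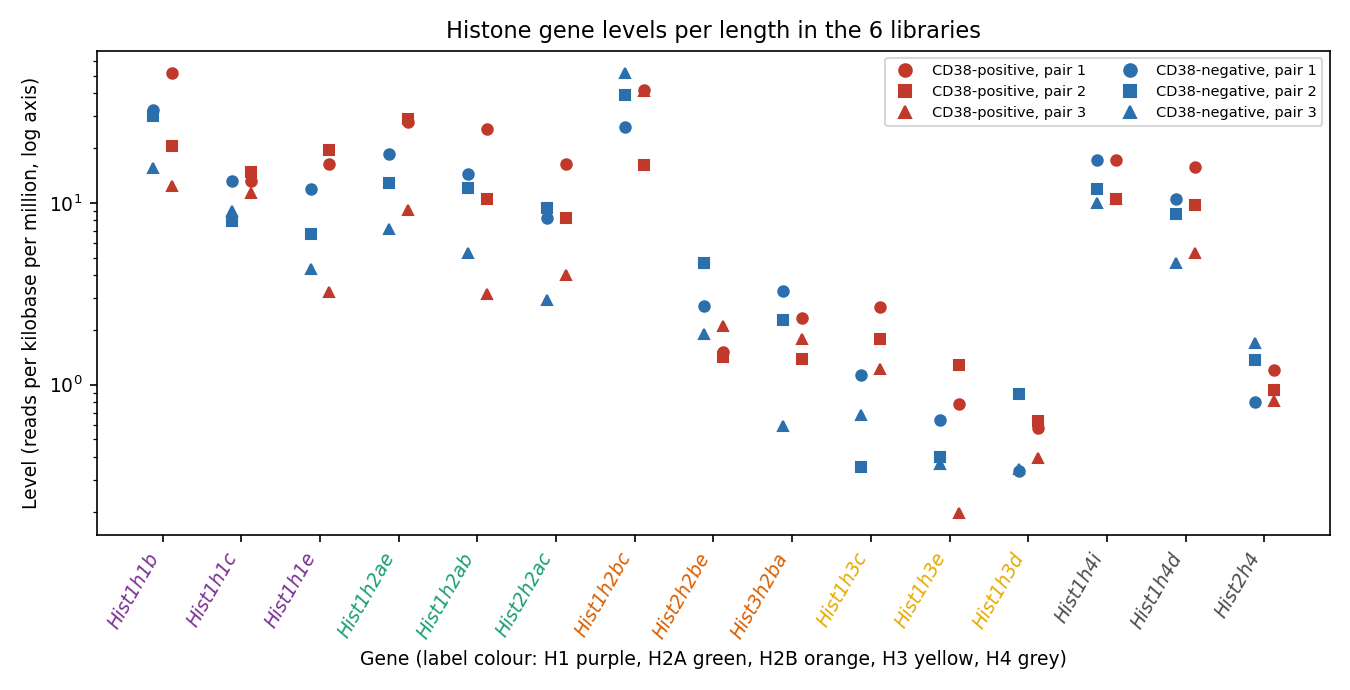
Level of the 3 most abundant members of each class in the 6 libraries, in RPKM on a log axis, with CD38-positive libraries in red, CD38-negative in blue and the marker shape giving the pair. The 3 H3 genes lie lowest as a class, with means of 0.528 to 1.31, while Hist1h2bc has the highest mean at 36.0.

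Summed over all 65 members, histone reads did not separate the populations. The sum was 259, 179 and 146 CPM in the CD38-positive libraries of pairs 1, 2 and 3, and 190, 185 and 158 CPM in their CD38-negative partners. The groups overlapped, with 195 ± 58.2 CPM (SD, n = 3) against 178 ± 17.4 CPM (SD, n = 3). The mean log2 ratio of CD38-positive over CD38-negative was 0.10, from 0.45 in pair 1, −0.05 in pair 2 and −0.11 in pair 3 (exact permutation within pairs, two-sided p = 1). With 3 pairs this test cannot go below 0.25. Without Hist1h2bc, the member of most reads, the mean log2 ratio was 0.20 and the exact permutation within pairs gave p = 0.25. In bulk RNA, fewer cycling cells and less histone RNA per cell cannot be told apart.

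By class, H1 genes summed to 94.3, 77.9 and 34.4 CPM in CD38-positive and 70.4, 50.2 and 35.2 CPM in CD38-negative libraries of pairs 1 to 3, a mean log2 ratio of 0.34. H2A genes had a mean log2 ratio of 0.21, at 62.5 against 43.2, 46.3 against 44.8 and 33.9 against 33.0 CPM, and without pair 1 the ratio was 0.041. The H2A sum was higher in the CD38-positive library of 3 of 3 pairs, but with unscaled library totals it was lower in pair 2 and the H1 sum was higher in 3 of 3. H2B genes had a mean log2 ratio of −0.32, set by pair 2 at 28.5 against 64.2 CPM. Their other pairs stood at 61.3 against 45.1 and 59.7 against 70.6 CPM. H3 genes, at 1.87 to 4.73 CPM in all, had a mean log2 ratio of 0.34, and H4 genes, at 16.4 to 36.5 CPM, one of 0.08. The exact permutation within pairs gave adjusted p from 0.833 to 1 over the 5 classes. With 3 pairs its unadjusted p cannot go below 0.25, the value of the H2A sum. It therefore cannot show that a class differs. Without pair 2 the H2B ratio was 0.10 and without pair 1 the H4 ratio was −0.05. Without the member of most reads, Hist1h3c for H3 and Hist1h4d for H4, the H3 ratio was −0.03 and the H4 ratio −0.07. The same step raised the ratio to 0.51 for H1 (without Hist1h1b) and to 0.43 for H2A (without Hist3h2a). For H2B (without Hist1h2bc) it gave −0.31.

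**Figure D2:**
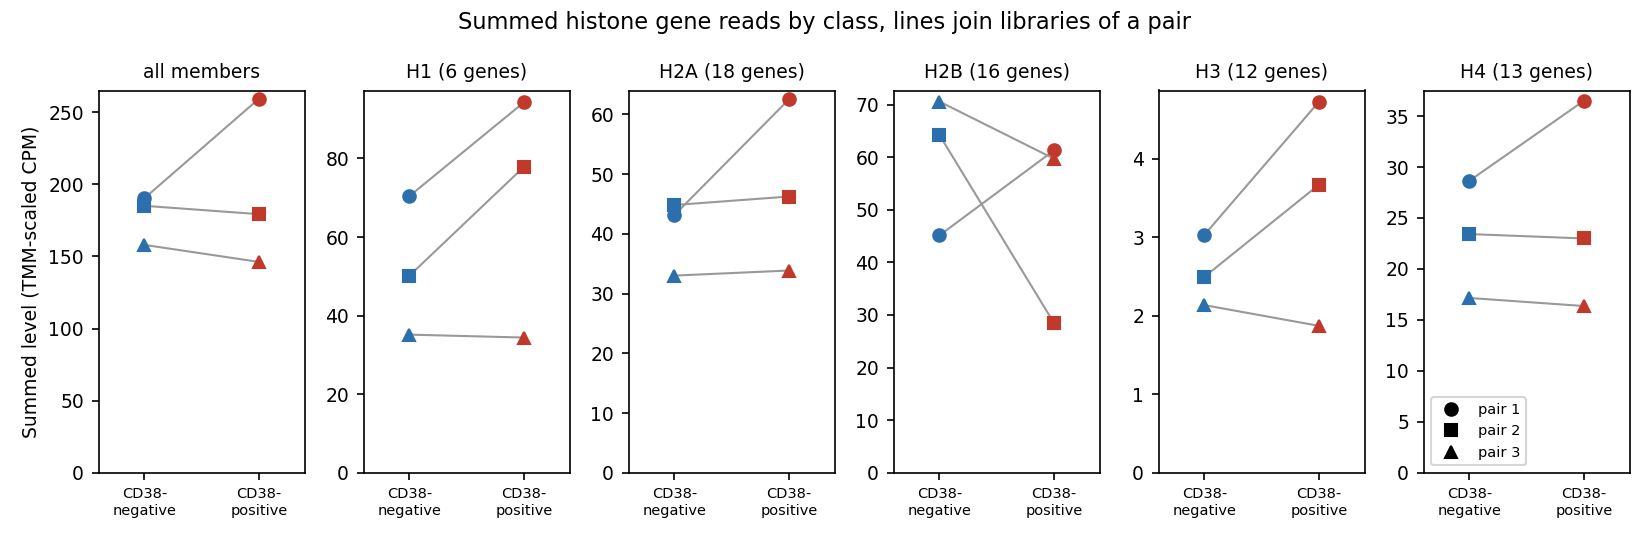
Summed level of the histone genes in TMM-scaled CPM, for all members and for each class, with a line joining the 2 libraries of each pair and the marker shape giving the pair. The lines run in both directions in every panel except H2A, whose values in pair 2 (46.3 against 44.8) and pair 3 (33.9 against 33.0) nearly coincide and whose order in pair 2 turns with unscaled library totals.

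Gene by gene, 26 members had enough reads to be tested, and that filter favours the abundant members. No member passed the adjusted threshold of 0.05 in edgeR's quasi-likelihood test with Benjamini-Hochberg adjustment over 14785 genes, where 2 genes (0.0135%) did. DESeq2 and limma-voom called 0 members as well, and the smallest adjusted p of a member was 0.925 in edgeR. At an unadjusted p under 0.05 there were 3 of 26 members (11.5%), 2 higher in CD38-positive cells (2.47% of all genes) and 1 lower (2.61%), against 5.08% of all tested genes. Without pair 1 there was 1 such member, without pair 2 there were 0, and without pair 3 there were 4. The log2 fold change was positive for 18 members and negative for 8, with a median of 0.14 against 0.00037 over all tested genes, and it ran from −0.90 to 1.42. Without pair 1 the members' median was −0.02. The standard errors (SE) of the fitted changes were 0.25 to 0.70.

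**Figure D3:**
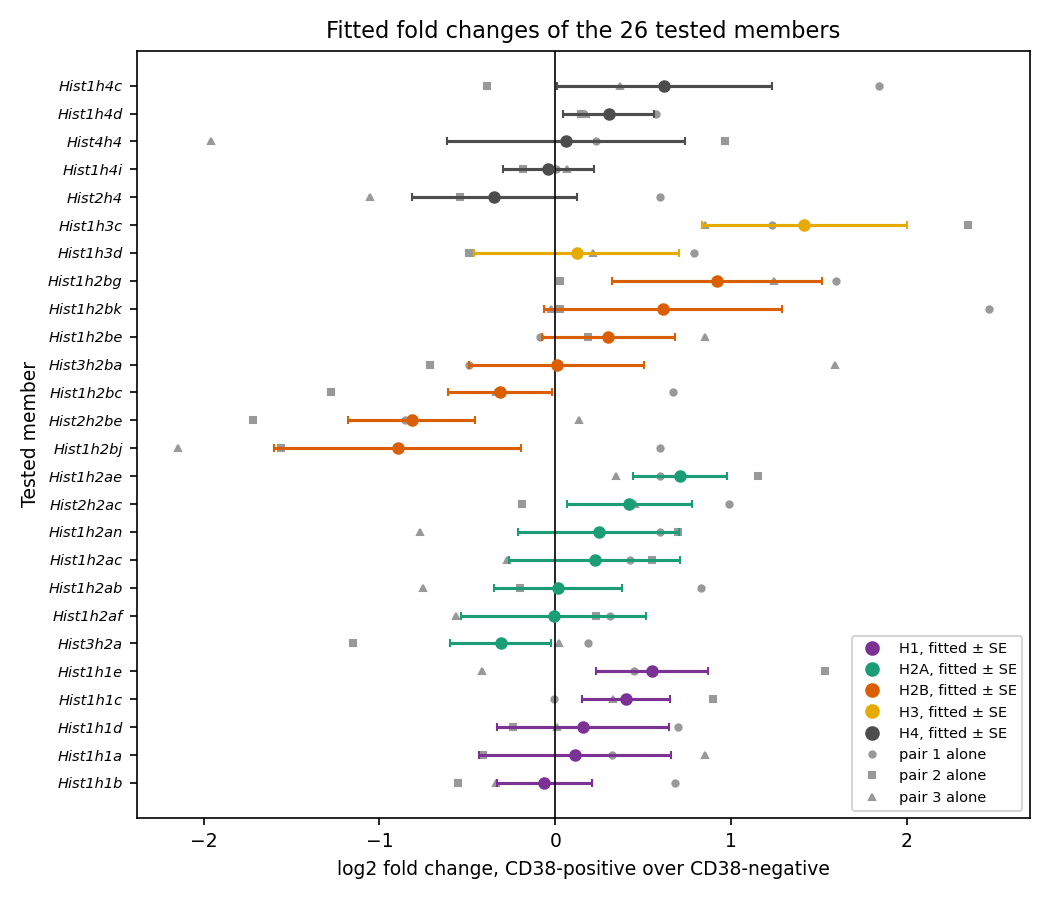
Fitted log2 fold change of CD38-positive over CD38-negative cells for the 26 tested members, coloured by class, with bars of 1 SE and small grey markers for each pair alone. In 4 members (Hist1h2ae, Hist1h2bg, Hist1h3c and Hist1h4d) all 3 pairs lie above 0 under TMM scaling, and in none do all lie below. With unscaled library totals Hist1h2bg is no longer among them.

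Among all tested genes 24.5% moved the same way in all 3 pairs, and 4 of the 26 members (15.4%) did. The groups did not overlap for 2 members (7.69%), Hist1h3c and Hist1h2bg, against 6.53% of all tested genes. Hist1h2bg had 11 reads in both libraries of pair 2, so that its order there is set by the scaling. With unscaled library totals 3 members moved the same way in all pairs and the groups of 1, Hist1h3c, did not overlap.

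Linker histones bind the DNA between nucleosomes. Hist1h1b stood at 38.5, 15.2 and 9.20 CPM in CD38-positive and 24.1, 22.3 and 11.6 CPM in CD38-negative libraries of pairs 1 to 3. Its log2 fold change was −0.06 (SE 0.27), and the 2 libraries of pair 3 were the lowest of the 6. Hist1h1e had 31.4, 37.7 and 6.22 CPM against 23.0, 12.99 and 8.30 CPM, a log2 fold change of 0.55 (SE 0.32, adjusted p = 0.926 in edgeR's quasi-likelihood test), higher in CD38-positive cells in pairs 1 and 2 and lower in pair 3. Without pair 2 the change was 0.035 and without pair 3 it was 0.99. Hist1h1c had 20.5, 22.9 and 17.7 CPM against 20.6, 12.3 and 14.1 CPM, with a log2 fold change of 0.40 (SE 0.25), 0.15 without pair 2, and overlapping groups.

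H2A pairs with H2B in the nucleosome. Hist1h2ae, whose promoter and stem-loop are printed above, had 19.7, 20.3 and 6.44 CPM in CD38-positive and 13.02, 9.10 and 5.07 CPM in CD38-negative libraries. It was higher in CD38-positive cells in 3 of 3 pairs, with pair log2 ratios of 0.60, 1.16 and 0.35, although the groups overlapped because pair 3 was low in both. The fitted log2 fold change was 0.71 (SE 0.27, adjusted p = 0.925 in edgeR's quasi-likelihood test), at 15.5 ± 7.82 CPM against 9.06 ± 3.98 CPM (SD, n = 3 each), and 0.47 without pair 2.

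The other H2A genes described here had smaller fitted changes. Hist1h2ab had 12.03, 4.97 and 1.49 CPM against 6.78, 5.72 and 2.50 CPM, a log2 fold change of 0.02 (SE 0.36). Hist2h2ac had 8.50, 4.29 and 2.09 CPM against 4.28, 4.88 and 1.53 CPM, a log2 fold change of 0.42 (SE 0.36), 0.11 without pair 1 and 0.74 without pair 2. Both were lowest in the 2 libraries of pair 3. Hist3h2a, the H2A gene of the chromosome 11 group, had 13.6, 9.09 and 19.6 CPM against 12.01, 20.2 and 19.4 CPM and a log2 fold change of −0.31 (SE 0.29), and here pair 3 was among the highest.

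Hist1h2bc lies on chromosome 13 from 23684199 to 23692908. It had 804, 329 and 862 reads in CD38-positive and 509, 812 and 983 reads in CD38-negative libraries, or 38.1 ± 16.9 against 45.1 ± 14.9 CPM (SD, n = 3 each). Its pair log2 ratios of 0.67, −1.28 and −0.34 differed in sign, and the fitted change was −0.31 (SE 0.30). Hist2h2be had 3.95, 3.73 and 5.51 CPM against 7.13, 12.3 and 5.01 CPM, that is 4.40 ± 0.970 against 8.14 ± 3.73 CPM (SD, n = 3 each). It was lower in CD38-positive cells in pairs 1 and 2 and close to its partner in pair 3, with a fitted log2 fold change of −0.82 (SE 0.36, adjusted p = 0.926 in edgeR's quasi-likelihood test), −0.37 without pair 2 and −1.29 without pair 3. Hist3h2ba had 6 to 34 reads per library and a log2 fold change of 0.0078 (SE 0.50), with pair values of −0.49, −0.71 and 1.59.

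H3 and H4 form the core of the nucleosome. Hist1h3c had 28, 20 and 14 reads in CD38-positive and 12, 4 and 7 reads in CD38-negative libraries, or 1.68, 1.13 and 0.771 CPM against 0.713, 0.222 and 0.427 CPM. Each CD38-positive library was above each CD38-negative one, the closest being 0.771 CPM (pair 3) above 0.713 CPM (pair 1). The fitted log2 fold change was 1.42 (SE 0.58, adjusted p = 0.925 in edgeR's quasi-likelihood test), the largest of the 26, and it rests on 85 reads. Hist1h3d had 7 to 20 reads per library and a log2 fold change of 0.12 (SE 0.58). Hist1h3e, with 11, 19 and 3 reads against 9, 6 and 5, did not pass the filter.

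H4 is among the most conserved of all proteins. Hist1h4i had 12.5, 7.63 and 7.60 CPM against 12.4, 8.66 and 7.26 CPM, with a log2 fold change of −0.04 (SE 0.26). Hist1h4d had 17.8, 11.01 and 6.00 CPM against 12.01, 9.93 and 5.31 CPM. It was higher in CD38-positive cells in 3 of 3 pairs, at a log2 fold change of 0.30 (SE 0.26), 0.16 without pair 1, and its groups overlapped. Hist2h4 had 1.98, 1.53 and 1.32 CPM against 1.31, 2.22 and 2.75 CPM, a log2 fold change of −0.35 (SE 0.47).

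H2A and H2B genes often start back to back, and 12 such neighbours, 24 members, had starts within 500 bases of each other. Members of 1 neighbour pair could differ widely in level. Hist1h2ac and Hist1h2bc start 251 bases apart, and their mean levels were 0.495 and 36.0 RPKM. In Hist1h2ae and Hist1h2bg, 176 bases apart, the H2A gene was the higher, at 17.4 against 1.10 RPKM. The limits of exon length and RNA capture given above for levels per length apply here too. The annotated exons span 2482 bases in Hist1h2ac and 1156 in Hist1h2bc. Hist2h2ac and Hist2h2be start 239 bases apart, at 96220880 and 96221119 on chromosome 3, inside the window printed above. The reads of Hist2h2ac divided by those of Hist2h2be were 2.15 in the CD38-positive and 0.6 in the CD38-negative library of pair 1, 1.15 and 0.398 in pair 2, and 0.380 and 0.305 in pair 3. The ratio was higher in CD38-positive cells in 3 of 3 pairs, while the groups overlapped. It was singled out after its values were seen and carries no test. The ratio was also computed for Hist1h2ac and Hist1h2bc, Hist1h2ae and Hist1h2bg, Hist1h2ag and Hist1h2bj, Hist1h2ak and Hist1h2bn, and Hist1h2an and Hist1h2bp. In each of these neighbours the ratio was lower in the CD38-positive library of pair 1 and higher in that of pair 2. None of them therefore kept the same direction over the pairs, and the remaining neighbours were not compared in this way.

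**Figure D4:**
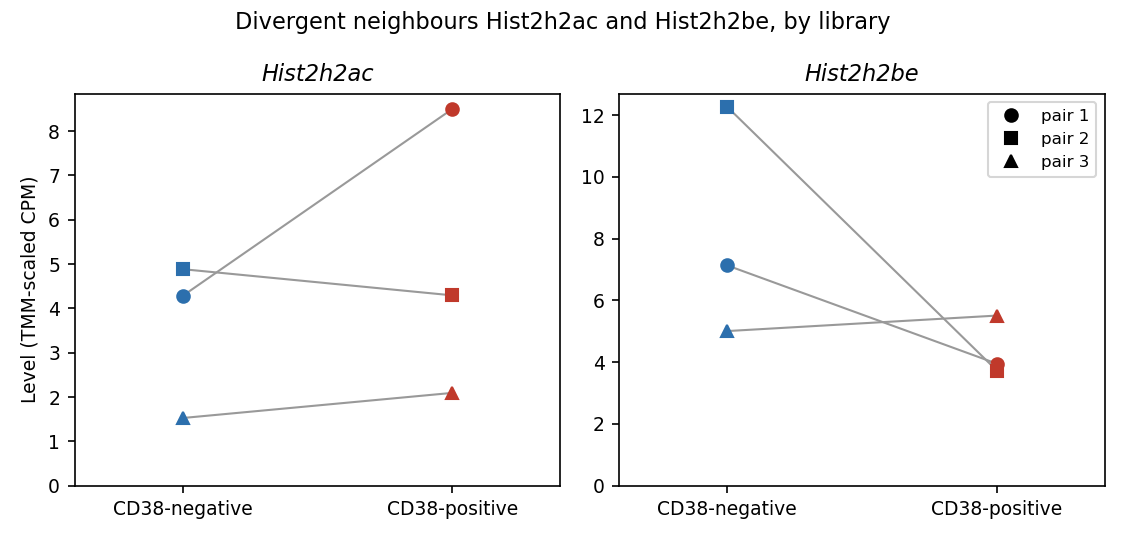
Levels of Hist2h2ac and Hist2h2be in TMM-scaled CPM in CD38-negative and CD38-positive libraries, with a line joining the libraries of each pair. Hist2h2be is lower in CD38-positive cells in pairs 1 and 2 (3.95 against 7.13 and 3.73 against 12.3 CPM), where Hist2h2ac stood at 8.50 against 4.28 and 4.29 against 4.88 CPM.

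For most tested members the level differed between pairs 1 and 3. With both populations summed, 20 of the 26 tested members were higher in pair 1 than in pair 3, and 11 (42.3%) by at least 2-fold, against 3.15% of all tested genes. The median fold was 1.57 for the tested members and 0.998 for all tested genes. Hist1h1a led with 11.3-fold, from 36 and 29 reads in pair 1 to 4 and 2 in pair 3, followed by Hist1h2ab with 4.71-fold and Hist1h1e with 3.75-fold. The 6 members lower in pair 1 were Hist1h2bk (0.583), Hist3h2a (0.659), Hist1h2bg (0.727), Hist1h2bc (0.729), Hist2h4 (0.807) and Hist1h2ac (0.936). Pair 1 against pair 3 is not a comparison of the study, and what separates the pairs is not stated in the labels. Pair 1 had the highest and pair 3 the lowest summed histone level, so these counts partly follow from the choice of pairs.

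Of these 6, 5 have an annotated 3′ end of at least 150 bases, as do 12 of the 20 higher in pair 1. The 27 members with such a longer end summed to 184, 144 and 127 CPM in CD38-positive and 143, 144 and 135 CPM in CD38-negative libraries, and pair 1 was 1.25 times pair 3. Without Hist1h2bc and Hist3h2a, 2 abundant members lower in pair 1, it was 1.93 times pair 3. The 38 members with a shorter annotated end summed to 75.0, 35.5 and 18.8 CPM against 47.3, 41.3 and 22.9 CPM, and pair 1 was 2.93 times pair 3. The longer group held 78.5% of the histone reads. This grouping, and leaving out those 2, were chosen after the values were seen and have no test. The grouping does not hold gene by gene, since Hist1h1e and Hist1h4d are in the longer group and were 3.75-fold and 2.64-fold higher in pair 1.

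Other RNA also differed between the same pairs, in mixed directions over the marker lists. In pair 1 the erythroid marker genes summed to 8996 CPM in the CD38-positive and 7414 CPM in the CD38-negative library, against 2526 and 3715 CPM in pair 3, and the HSC marker genes to 744 and 991 CPM against 1583 and 1393 CPM. The 40 S phase genes summed to 9067 and 8663 CPM in pair 1 and 6377 and 7104 CPM in pair 3. In pair 2 the HSC genes stood at 956 and 2200 CPM and the erythroid genes at 3775 and 5432 CPM. The other lists were higher in pair 1 than in pair 3 in CD38-positive libraries and lower in CD38-negative ones. The promyelocyte genes, for example, stood at 16957 and 10751 CPM in pair 1 and 9080 and 12884 CPM in pair 3. The B and plasma cell genes stood at 287 and 468 CPM against 215 and 1088 CPM. The part of these lists in the histone levels was not tested.

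**Figure D5:**
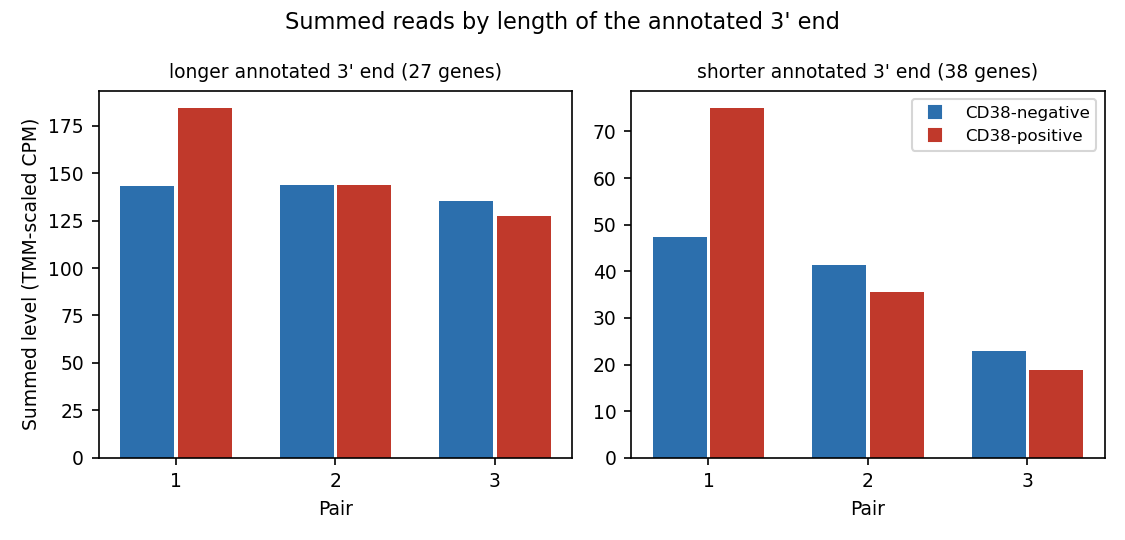
Summed level in TMM-scaled CPM of members with a longer (at least 150 bases, left) and a shorter (right) annotated 3′ UTR, by pair, with CD38-negative libraries in blue and CD38-positive in red. The shorter group drops from 75.0 and 47.3 in pair 1 to 18.8 and 22.9 in pair 3, while the longer group stays between 127 and 184. Hist1h2bc and Hist3h2a are in the longer group, which without them was 1.93 times higher in pair 1 than in pair 3.

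The replacement histones compared here outweighed the members in 2 classes. H3f3a and H3f3b, which both encode H3.3, summed to 503 to 731 RPKM, against 2.57 to 6.88 RPKM for the 12 H3 members, a ratio of 81.3 and 126 in the CD38-positive and CD38-negative libraries of pair 1, 103 and 172 in pair 2, and 232 and 245 in pair 3. H2afz and H2afv, which encode forms of H2A.Z, were 6.27 and 8.84 times the sum of the 18 H2A members in pair 1, 8.04 and 8.12 times in pair 2, and 17.3 and 22.5 times in pair 3. Both ratios were lower in the CD38-positive library of 3 of 3 pairs, which is a description with no test. For H1 the balance varied: H1f0 and H1fx together were 0.0987 and 0.197 times the H1 members in the CD38-positive and CD38-negative libraries of pair 1, 0.372 and 0.709 times in pair 2, and 1.16 and 0.937 times in pair 3. H1f0, the linker histone associated with resting and differentiated cells, had 17.1, 42.3 and 65.0 CPM in CD38-positive and 24.1, 67.3 and 56.2 CPM in CD38-negative libraries, lowest in the CD38-positive library of pair 1, where the H1 members were highest. Such ratios also depend on how the library captured RNA without a poly(A) tail, and the selection step is not given in the sources used here. They depend as well on how reads that match several genes were counted, which is not given either. No H3 member reached 80% unique windows.

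None of the 10 tested replacement genes passed the adjusted threshold or an unadjusted p of 0.05 between the populations in edgeR's quasi-likelihood test. Their log2 fold changes were 0.45 for H3f3a (SE 0.23, and 0.12 without pair 2), −0.14 for H3f3b, −0.02 for H2afz, 0.14 for H2afv, 0.12 for H2afx, 0.13 for H2afj, 0.15 for H2afy, −0.0009 for H2afy2, 0.22 for Cenpa and −0.31 for H1f0. H1fx did not pass the filter.

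The next list holds genes that transcribe, cut and degrade histone mRNA. Of 23 tested, 13 had a positive and 10 a negative log2 fold change, with a median of 0.04, and 0 passed the adjusted threshold or an unadjusted p of 0.05. Slbp, which binds the stem-loop, had 315, 259 and 256 CPM in CD38-positive and 325, 209 and 297 CPM in CD38-negative libraries. Npat, the shared activator of histone genes, had 27.1, 26.2 and 20.98 CPM against 31.7, 33.9 and 27.3 CPM, a log2 fold change of −0.33 (SE 0.21). Its groups did not overlap and it was lower in CD38-positive cells in 3 of 3 pairs. Lsm10 and Lsm11, subunits of the U7 snRNP that cuts the histone precursor, had log2 fold changes of −0.37 (SE 0.21) and −0.30 (SE 0.31) and were lower in 3 of 3 pairs as well. In the other direction, Ncbp1, Ncbp2, Upf1 and Nelfe were higher in 3 of 3 pairs, at 0.33, 0.26, 0.40 and 0.29, and the groups of Ncbp2 did not overlap. Under TMM scaling 2 of the 23 genes (8.7%) had groups without overlap, against 6.53% of all tested genes. The share that moved the same way in all 3 pairs was 30.4%, against 24.5% of all tested genes. With unscaled library totals the groups of every gene of the list overlapped. In that setting 2 genes were higher and 4 lower in all 3 pairs, against 4 and 3 under TMM scaling. Hinfp, an activator of H4 genes, stood at 0.26, Casp8ap2 at 0.30 and Zfp473, which works with the U7 snRNP, at 0.14. None of these differences passed the test.

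Histone chaperones carry new histones to the replication fork. Of 24 tested, 12 had a positive and 12 a negative log2 fold change, the median was −0.0038, and 0 passed the adjusted threshold or an unadjusted p of 0.05 in edgeR's quasi-likelihood test. Nasp stood at 0.08, Asf1a at −0.11, Asf1b at −0.02, and the CAF-1 subunits Chaf1a and Chaf1b at 0.16 and −0.04. Hat1, which acetylates new H4, stood at 0.24 and was higher in CD38-positive cells in 3 of 3 pairs. Under TMM scaling 4.17% of this list moved the same way in all pairs, against 24.5% of all tested genes. With unscaled library totals the share was 20.8% against 23%, so the low share depends on the scaling.

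Of 40 S phase genes, 30 had a positive and 10 a negative log2 fold change, with a median of 0.16 against 0.14 for the tested histone members and 0.00037 for all tested genes. None passed the adjusted threshold and 1 had an unadjusted p under 0.05, Ccna2, the S phase and G2 cyclin (log2 fold change 0.61, SE 0.27, adjusted p = 0.926 in edgeR's quasi-likelihood test), which stood at 0.12 without pair 2. The replication clamp gene Pcna stood at 0.08, the helicase subunits Mcm2 and Mcm5 at 0.18 and 0.24 (Mcm5 at 0.032 without pair 2), Rrm2 at 0.24, Tyms at −0.0049 and Ccne2 at 0.05. The S phase sum was 9067, 9400 and 6377 CPM in CD38-positive and 8663, 6136 and 7104 CPM in CD38-negative libraries, with overlapping groups.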

How the data were processed

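Counts are whole reads per Ensembl gene, 1 table per library, as deposited by the authors. The submitters' processing notes name cutadapt, STAR and HTSeq 0.6.1p1 with GRCm38 (mm10), and their settings, the annotation release, strand handling and library selection step are not given in the sources used here. Symbols, exon lengths and transcripts came from GENCODE release M21 on GRCm38, which matched 49326 of the 49585 identifiers. Another 3 pseudogenes with a matching symbol were left out.

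In R 4.3.3, genes were kept with filterByExpr (14785 genes) and scaled by TMM (factors 0.900 to 1.07). They were tested with edgeR 4.0.16's quasi-likelihood test in a model of pair plus population, adjusted by Benjamini-Hochberg over all tested genes. RPKM used the union of annotated exons. Summed CPM were tested by swapping populations within pairs. The pairing comes from the series' design text. Libraries of a pair deviated together over genes, with correlations of 0.341, 0.118 and 0.24. Nothing states that pairs are separate pools beyond the 10 mice per library, so p-values measure only the spread between these libraries.

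The text names the 3 members highest in mean RPKM per class, members with an unadjusted p under 0.05, and set genes of the related lists. Hist3h2a, the divergent neighbours, the members set apart by pair 1 against pair 3 and those that moved the same way in all pairs were added after their values were seen. The members and lists were chosen with earlier results of these data known. Zcchc11 and Zcchc6, listed under these older symbols, were matched through their newer ones, Tut4 and Tut7.

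Alternatives were the fit without the pair, DESeq2 1.42.0, limma-voom (limma 3.58.1), other scalings, filters and thresholds, a GC correction and leaving out each pair, and, added after seeing the data, sums by annotated 3′ end and directions under each scaling. On simulated counts of 14501 genes the test called 49 of 100 genes changed 2-fold and 95 of 100 changed 4-fold, and 9 of 14301 unchanged genes. The simulation held no pair effect, and its changed genes were drawn only from those with a higher mean count. These shares therefore do not apply to tested members with few reads, such as Hist1h3c with a mean of 14.2.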

Additional observations from a re-analysis of the deposited data

How the results depend on the processing

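No member passed the adjusted threshold under any of the 12 alternatives run, while members at an unadjusted p under 0.05 numbered 3, between 0 and 4 with a pair left out, and 0 at a threshold of 0.01. Over all genes, 2 passed. Without the replicate block, that is ignoring the pairing, 0 did, as with unscaled totals. DESeq2 gave 11, DESeq2 size factors 7, no filter 80, a mean of at least 10 counts 13, the GC correction 7, a threshold of 0.1 gave 7, and leaving out a pair 2 to 41. The block changed no member's call. The cause of these differences was not tested. The summed level of all members ran from −0.08 to 0.20 (log2) with a pair left out, H2B from −0.71 to 0.10 and H4 from −0.048 to 0.16. Without the member of most reads H3 (Hist1h3c) stood at −0.026 and H4 (Hist1h4d) at −0.067. All members (Hist1h2bc) then stood at 0.20, H1 (Hist1h1b) at 0.51, H2A (Hist3h2a) at 0.43 and H2B (Hist1h2bc) at −0.31.

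Of 483 alternative values for 44 named genes 439 kept their direction, and 44 changed sign, 27 of them with a pair left out. Ignoring the pairing, Hist1h1b stood at 0.12, Hist3h2ba at −0.16, Slbp at −0.00085, Tyms at 0.026 and H2afy2 at 0.016. In limma-voom Hist1h1b stood at 0.0012, Hist3h2ba at −0.071 and H2afy2 at 0.0082. With unscaled totals Hist1h2ab stood at −0.018, Hist3h2ba at −0.019 and Slbp at −0.00045. With the GC correction Hist1h2ab stood at −0.03, Hist3h2ba at −0.016 and Tyms at 0.011. H2afy2 stood at 0.0019 in DESeq2, 0.0027 with its size factors and 0.0037 without a filter. With a pair left out, the ranges that crossed 0 were Hist1h1b −0.44 to 0.18, Hist1h2ab −0.45 to 0.32, Hist1h2bc −0.80 to 0.15, Hist1h3d −0.17 to 0.076, Hist1h4i −0.090 to 0.021, Hist2h4 −0.79 to 0.012, Hist3h2ba −0.59 to 0.36, Hinfp −0.017 to 0.44, Casp8ap2 −0.038 to 0.46, Slbp −0.14 to 0.13, Asf1a −0.34 to 0.063, Asf1b −0.24 to 0.30, Chaf1a −0.12 to 0.31, Chaf1b −0.16 to 0.076, Pcna −0.042 to 0.25, Mcm2 −0.031 to 0.30, Rrm2 −0.12 to 0.45, Tyms −0.17 to 0.13, Ccne2 −0.10 to 0.27, H2afj −0.079 to 0.25, H2afv −0.14 to 0.31, H2afy2 −0.077 to 0.070, H2afz −0.13 to 0.17 and Cenpa −0.076 to 0.43.

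The median SE among the tested members was 0.46. Hist1h2bc, with 4299 reads, had an SE of 0.30, and Hist1h4i, with 965, one of 0.26. The filter left out 39 members.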
